A study of Mus musculus with 6 samples.

Results

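Control morulae of the mouse were profiled by RNA-seq in 3 libraries, each made from 10 pooled embryos, and the levels of all 55364 genes listed in these libraries are described here. They are the control KD arm of a series of 6 libraries, taken by their labels. The embryos had BDF1 parents on both sides and were made by in vitro fertilization of eggs from superovulated females. They were cultured in KSOM medium and had received a control siRNA by injection as zygotes. They are therefore injected and cultured embryos and not embryos taken from an oviduct. The other 3 libraries come from morulae of the same cross and culture injected with an siRNA against *Yy1*, a zinc finger transcription factor, and apart from the level of *Yy1* itself they are not used. The target of the control siRNA is not given in the sources used here. Because 10 embryos were pooled before RNA was read, the level of a gene is an average over embryos and over the cells within them, and fewer cells of a type and less RNA per cell cannot be told apart.

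The morula is the stage at which the blastomeres flatten against each other, an event called compaction, and become polarized. Outer, polar cells keep the Hippo pathway inactive, so that YAP and TEAD4 can switch on trophectoderm genes such as *Cdx2*, and become the layer that will form the placenta. Inner, apolar cells form the inner cell mass, from which the epiblast and the primitive endoderm later separate. By this stage most mRNA stored in the egg has been degraded and the embryo relies on its own transcription.

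Levels are given as TPM, the number of read pairs on a gene divided by the length of its exons and then scaled to 1000000 per library, which allows levels of different genes to be compared per length. Values for 3 pools are given in the order pool 1, pool 2 and pool 3, ± gives the SD over the 3 pools, and a gene is called detected at 1 TPM or more in each of the 3. Read pairs recovered from TPM and exon length amounted to 12519597, 24417789 and 18109905 in pools 1, 2 and 3, so pool 2 was the deepest and pool 1 the shallowest. Each pair of pools had a Pearson's r of log2(TPM + 1) from 0.974 to 0.976 across all genes, which are not replicates of each other.

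In all, 14665 genes were detected, of which 10579 were protein-coding. These are 48.3% of the 21884 protein-coding genes listed, a share against which the lists of genes below are set. A further 4257 protein-coding genes (19.5%) were at 0 TPM in every pool. Pools 1, 2 and 3 had 17180, 16696 and 17553 genes at 1 TPM or more, so the deepest pool had the fewest at this cut. Above 0 TPM they had 25442, 27315 and 26311 genes, and there the deepest pool had the most. The mean over pools reached 10 TPM in 6447 protein-coding genes, 100 TPM in 1206 and 1000 TPM in 56. Long intergenic non-coding RNAs were detected far less often, in 333 of 5614 listed (5.93%), and processed pseudogenes in 1279 of 9936 (12.9%). The 10 highest genes of each pool held 17.1%, 18.4% and 17.9% of its TPM, and the 10 highest protein-coding genes held 9.09%, 9.62% and 9.74% of the TPM of protein-coding genes.

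**Figure D1:**
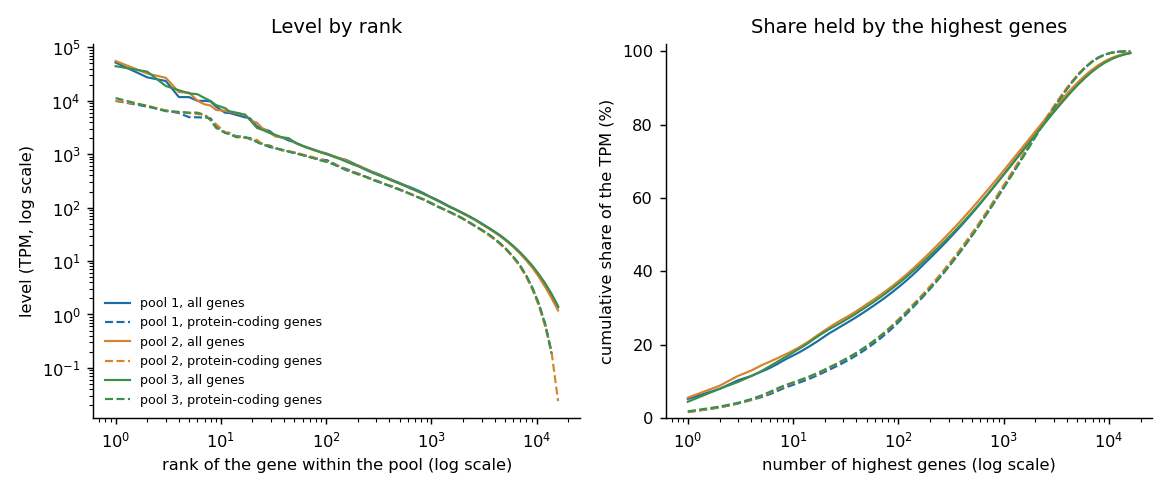
Level by rank in the 3 control pools. Left, TPM (log scale) against the rank of a gene within its pool (log scale), for all genes (solid lines) and protein-coding genes (dashed lines); right, the cumulative share of TPM held by the highest genes. The curves of the 3 pools lie close to each other, and the 1000 highest genes of a pool held 66.4%, 67.5% and 66.3% of its TPM.

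The protein-coding genes at 0 TPM in every pool had short and simple gene models, with a median exon length of 1860.5 nt and a median of 3 separate exonic blocks. Of these 4257 genes, 843 encode olfactory and 245 vomeronasal receptors, and the class was not described without them. Genes between 10 and 100 TPM had a median of 4336 nt and 10 blocks. At 100 TPM and above the median length was 3053 nt, with 9 blocks, so these gene models were shorter than those of the middle range. The lengths are those of all annotated exons of a gene merged, and not of its transcripts. TPM is itself divided by exon length, so level and length are not independent here.

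The labelled stage was checked against marker genes, which were chosen with earlier results of these data known, so their detection is a description and no independent support. Of 8 genes taken as markers of the morula, *Pou5f1*, *Nanog*, *Sox2*, *Cdx2*, *Krt8*, *Krt18*, *Tead4* and *Cdh1*, all were detected, with *Sox2* the lowest at 8.73, 9.93 and 14.3 TPM. None of 13 cumulus and granulosa cell markers was detected, and 9 of them, among them *Cyp19a1*, *Has2*, *Ptgs2*, *Ptx3* and *Fshr*, were at 0 in every pool. Their summed level was 2.51, 1.48 and 3.44 TPM, most of it from *Star* (1.41, 0.871 and 2.53 TPM), which encodes the protein that carries cholesterol into mitochondria. None of 11 sperm and spermatid markers was detected, with a summed level between 0.749 and 1.40 TPM, and the protamine gene *Prm1* and the transition protein genes *Tnp1* and *Tnp2* were at 0 throughout. Of 11 blood cell markers only *Spi1* was detected (7.599, 9.703 and 9.299 TPM), while *Ptprc*, the pan-leukocyte antigen CD45, and the β-globin genes *Hbb-bs* and *Hbb-bt* were at 0.

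Markers of differentiated tissues were set beside these, and 5 of 20 were detected, each at a low level. *Pecam1*, an adhesion molecule of endothelial cells, was at 7.83, 9.03 and 12.7 TPM. *Apoa1*, an apolipoprotein of liver and yolk sac, was at 6.25, 6.58 and 15.3 TPM, with pool 3 far above the others. *Pax6* (6.03, 5.73 and 5.29 TPM), *Syp* (6.66, 2.83 and 4.73 TPM) and *Sftpc* (1.49, 1.08 and 1.17 TPM) were the other three. The albumin gene *Alb* was at 0, 0.0414 and 0 TPM, and *Ins2*, *Col1a2*, *Umod* and *Neurod1* were at 0 in all pools.

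The highest genes of all were small non-coding RNAs. *Rn7sk*, the RNA that holds the elongation factor P-TEFb inactive, was at 52118, 55658 and 44519 TPM, which is 50765 ± 5691 TPM (SD, n = 3). *Rpph1*, the RNA of ribonuclease P, was at 27515, 32393 and 35199 TPM, and *Rmrp*, the RNA of the related ribonuclease MRP, at 1728, 1973 and 2002 TPM in the longer of its overlapping records. *Rn7s1* (4586, 3974 and 4131 TPM) and *Rn7s2* (5943, 6674 and 4589 TPM) encode the RNA of the signal recognition particle. Genes under 200 nt held 16.5%, 17.1% and 16.8% of the TPM.

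Part of this top group is a matter of shared exonic sequence, since read pairs on several genes were divided among them without regard to strand. *Gm47305*, annotated as a miRNA of 70 nt with a mean of 23141 TPM, lies wholly within *Rn7s2* and held 0.923, 0.943 and 0.963 times as many pairs. *Gm27597*, 80 nt long with a mean of 9408 TPM, lies within the ribosomal protein gene *Rpl19*, and *Gm23419*, 84 nt, shares 83 nt with the actin gene *Actg1*. A short exon that receives pairs from a long and abundant mRNA reaches a high TPM, so the levels of these annotated miRNAs cannot be told apart from those of their hosts. The same holds for the gene at rank 7 of the protein-coding genes. *Ccnb1ip1* (chromosome 14 from 50789248 to 50807732, GRCm38), which encodes a regulator of meiotic crossing over, was at 4689, 5525 and 6002 TPM, but shares 233 nt with *Rpph1* and held nearly the same number of pairs, 45700, 107424 and 84322 against 45431, 106691 and 83783. The difference amounts to 27.5, 37.7 and 38.4 TPM of *Ccnb1ip1*.

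Protein folding and translation led the protein-coding genes. The cytosolic HSP90 chaperones came first, with *Hsp90aa1* (chromosome 12 from 110690605 to 110702728) at 9975, 10034 and 11281 TPM and *Hsp90ab1* (chromosome 17 from 45567775 to 45573271) at 7788, 8147 and 7949 TPM. The lowest pool of *Hsp90aa1* lay above the highest pool of *Hsp90ab1*. Their partners were also among the 20 highest, *Hspa8*, the constitutive HSP70, at 4858, 5893 and 6012 TPM and *Stip1*, which hands clients from HSP70 to HSP90, at 2005, 2059 and 2028 TPM. Of the 20 highest protein-coding genes 7 encode cytosolic ribosomal proteins, led by *Rplp1* at 6612, 6526 and 6219 TPM. The elongation factor genes *Eef1a1* (2434 ± 128 TPM, SD, n = 3) and *Eef2* (2041 ± 116 TPM) also belong here, and the lowest pool of *Eef1a1* lay above the highest pool of *Eef2*.

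The remaining genes of the top 20 were of several kinds. *Ptma*, encoding the small acidic nuclear protein prothymosin α, was at 5889.5, 6115 and 5458 TPM. *Calcoco2*, an autophagy receptor known as NDP52, was at 4943, 5628 and 6377 TPM, lowest in pool 1 and highest in pool 3. *Npm1*, the main nucleolar phosphoprotein, varied very little, at 2983, 2904 and 2952 TPM. *Hprt*, the X-linked purine salvage enzyme, was at 2181, 1886 and 2016 TPM, and *Actb*, cytoplasmic β-actin, at 1649, 2156 and 2003 TPM.

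Genes of pluripotency and the inner cell mass were as a group the most abundant of the lineage lists. Of 28 genes, 25 were detected, 23 had a mean of 10 TPM or more and 17 a mean of 100 TPM or more, against 48.3% detected among all protein-coding genes. Their median was 194 TPM, while the median of all protein-coding genes was 1.23 TPM and that of the detected ones 15.7 TPM. *Dppa3*, also called Stella, a protein that shields the maternal genome from demethylation, was the highest and the 8th of all protein-coding genes, at 4909, 4329 and 4379 TPM. *Fbxo15* (1126, 1105 and 1047 TPM), an F-box gene expressed in pluripotent cells, and *Dppa5a* (945, 801 and 842 TPM), an RNA-binding protein gene of pluripotent cells, followed.

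The core factors of the network differed in level by a wide margin. *Pou5f1*, which encodes OCT4, was at 678, 698 and 742 TPM, rank 109 of the protein-coding genes. It shares exonic sequence with the antisense gene *Gm19553*, which held 993, 1057 and 1055 TPM, and pairs from both could not be told apart without strand. *Nanog*, the factor of the naive epiblast, was at 262, 304 and 399.6 TPM, with pool 3 well above pool 1. *Sox2*, the partner of OCT4, was lower by more than 10 times, at 8.73, 9.93 and 14.3 TPM, and it too was lowest in pool 1 and highest in pool 3. *Fgf4*, a shared target of OCT4 and SOX2 that signals to the primitive endoderm, was at 14.2, 12.2 and 21.2 TPM. The ranges of *Sox2* and *Fgf4* overlapped.

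Most other factors of naive pluripotency lay between these. *Tfcp2l1* was at 324, 401 and 391 TPM, *Klf5* at 356, 356 and 318 TPM, *Klf2* at 181, 193 and 157 TPM and *Klf4* at 188, 156 and 173 TPM. The KLF genes encode related zinc finger factors, and *Klf5* was above *Klf2* and *Klf4* in every pool. *Sall4* (248, 281 and 249.7 TPM), *Zfp42* (216, 210.4 and 227 TPM), *Nr5a2* (220.3, 203 and 181 TPM) and *Tbx3* (190.4, 184 and 184 TPM) were within a narrow range of each other. *Esrrb*, an orphan nuclear receptor, was lower at 87.0, 75.3 and 79.03 TPM, and *Prdm14* (6.33, 4.08 and 3.398 TPM) was near the low end. The 3 genes not detected were *Spp1*, *Zscan10* and *Nr0b1*, of which *Nr0b1* was at 0 in pools 1 and 2 and at 0.741 TPM in pool 3.

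Trophectoderm genes were present at the same time. Of 22 genes 15 were detected, with a median of 14.7 TPM over all 22. The regulators *Tfap2c* (192, 179 and 179.7 TPM), *Tead4* (112, 127 and 110.3 TPM), *Cdx2* (56.1, 61.6 and 65.02 TPM) and *Gata3* (45.3, 43.1 and 40.02 TPM) were all well expressed, in this order in every pool. *Cdx2*, the homeobox gene that marks outer cells, was below *Nanog* in each of the 3 pools. *Hand1*, a basic helix-loop-helix factor of trophoblast giant cells, was at 311, 287 and 249 TPM, above each of these regulators.

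Genes of the epithelium that the outer cells form were also high. The keratin pair of simple epithelia, *Krt8* and *Krt18*, was at 219.7, 325 and 329 TPM and 212, 177 and 171 TPM, and the tight junction gene *Cldn4* at 241, 183 and 231 TPM. *Lrp2*, which encodes the endocytic receptor megalin, was at 59.4, 23.6 and 78.8 TPM, with pool 2 far below the others. Other genes of the later trophoblast were low: *Eomes* at 1.95, 1.61 and 4.06 TPM, *Elf5* at 0, 0.00824 and 0.0456 TPM, *Gata2* at 0.215, 0.233 and 0.0745 TPM and *Krt7* at 0.411, 0.4397 and 0.342 TPM. *Elf5*, required to keep trophoblast stem cells, was the lowest of the list.

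Primitive endoderm genes also ranged from well expressed to undetected. Of 19 genes 11 were detected, with a median of 3.14 TPM over all 19. *Gata6*, the earliest factor of the lineage, was at 117, 114 and 103 TPM, and *Dab2*, an endocytic adaptor, at 77.6, 90.6 and 92.98 TPM. *Gata4* was lower, at 15.5, 10.8 and 8.62 TPM, and *Pdgfra*, a growth factor receptor of this lineage, was at 6.85, 4.78 and 9.12 TPM. *Sox17* was at 0.08097, 0.142 and 0 TPM and *Sox7* at 0.117, 0.0587 and 0 TPM, under the detection limit in each pool, and *Foxa2* was at 0. Of the basement membrane genes of the list, *Lama1* and *Sparc* were below 1 TPM in every pool, and others were detected and shared an order of the pools, with *Col4a1* at 32.2, 21.1 and 49.6 TPM, *Lamc1* at 23.1, 14.5 and 32.3 TPM and *Lamb1* at 25.4, 15.2 and 26.9 TPM, each lowest in pool 2 and highest in pool 3. Exonic sequence is shared with another annotated gene by 6 of the 28 pluripotency genes, 7 of the 22 trophectoderm genes and 8 of the 19 primitive endoderm genes.

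**Figure D2:**
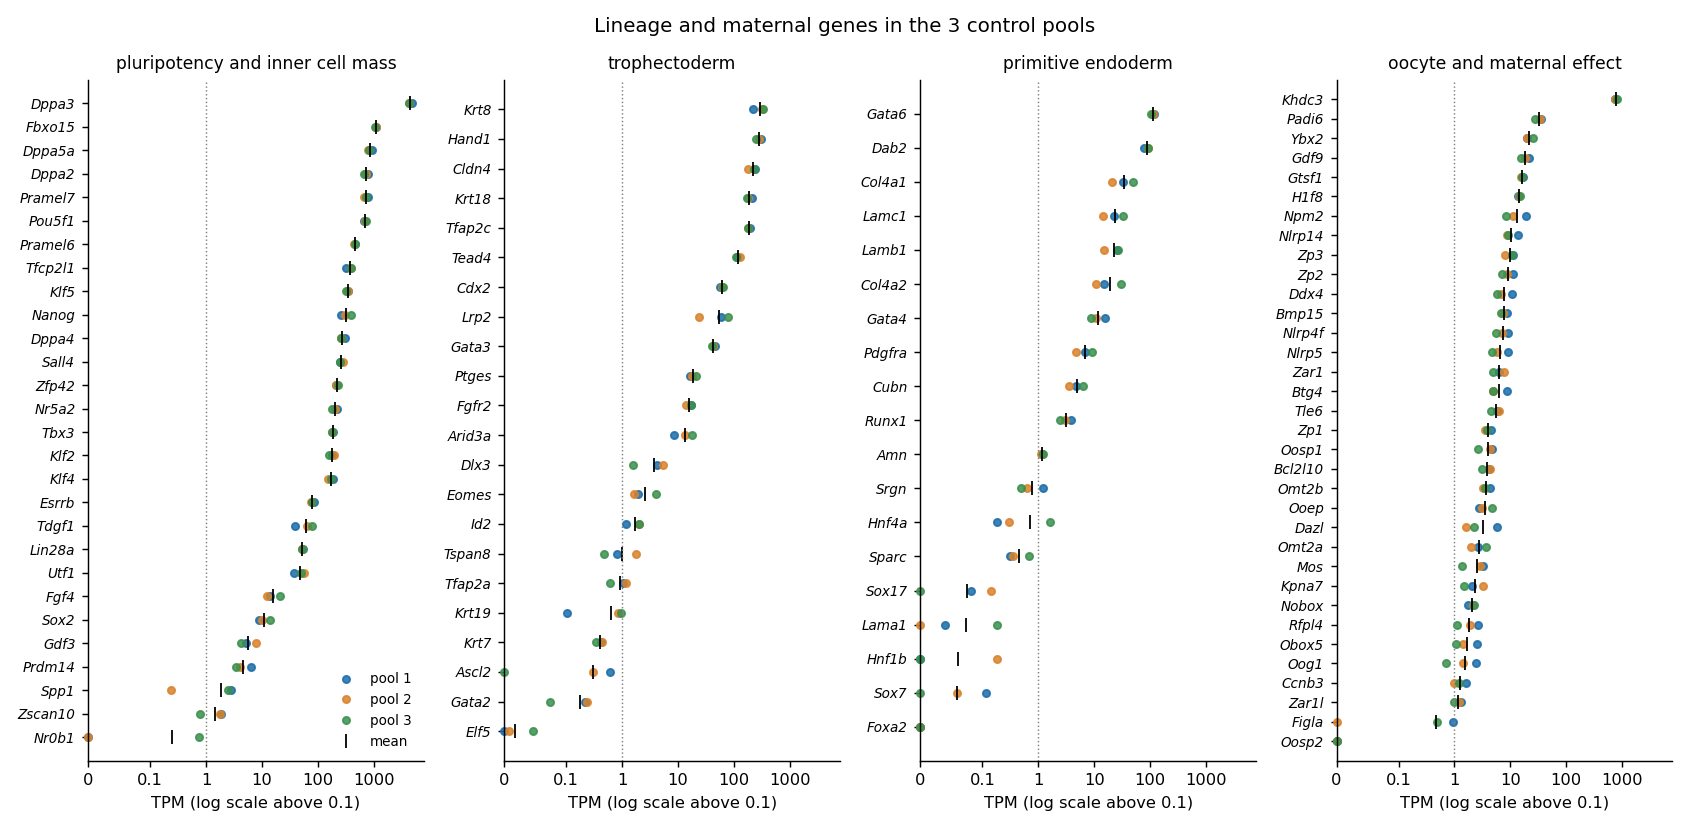
Level of each gene of 4 lists in the 3 control pools. Each row is a gene, coloured points are the pools, black marks are means of the 3 pools, the axis is TPM (logarithmic above 0.1, linear below) and the dotted line marks 1 TPM. Pluripotency genes reach from 0 TPM (*Nr0b1*) to a mean of 4539 TPM (*Dppa3*), and most maternal genes lie between 1 and 20 TPM.

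Oocyte and maternal effect genes were mostly still measurable but low. Of 34 listed genes 29 were detected, yet only 8 had a mean of 10 TPM or more, and the median was 4.76 TPM. The exception was *Khdc3*, also called Filia, a subunit of the subcortical maternal complex, at 753, 761 and 821 TPM. It shares exonic sequence with the protein-coding *Gm20509*, so its level is uncertain to that extent. Its partners in that complex were far lower, with *Nlrp5* (also called Mater) at 8.97, 5.81 and 4.73 TPM, *Tle6* at 5.82, 6.27 and 4.56 TPM, *Ooep* at 2.801, 3.08 and 4.76 TPM and *Padi6* at 36.1, 33.4 and 27.7 TPM. Among genes of the egg coat, *Zp3* was at 10.95, 8.13 and 10.8 TPM, *Zp2* at 11.3, 8.604 and 7.13 TPM and *Zp1* at 4.58, 3.47 and 3.86 TPM.

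Genes with roles in the growing oocyte were also seen. The oocyte growth factors *Gdf9* and *Bmp15* were at 21.4, 18.6 and 15.2 TPM and 8.902, 7.53 and 6.74 TPM. The kinase gene *Mos*, which holds the egg in metaphase arrest, was at 3.20, 2.87 and 1.39 TPM, and *Btg4*, an adaptor for the clearance of maternal mRNA, at 8.84, 5.002 and 4.82 TPM. *Figla* and *Oosp2* were below detection, with *Oosp2* at 0 in every pool. The levels tended to be highest in pool 1: of the 29 detected genes 19 were highest in pool 1 and 17 were lowest in pool 3, while 34.5% of all detected protein-coding genes were highest in pool 1 and 31.3% lowest in pool 3. For *Npm2*, nucleoplasmin, the values were 19.4, 10.98 and 8.41 TPM, and for *Ddx4*, a germ cell helicase, 10.8, 6.91 and 5.83 TPM. Exonic sequence of *Npm2* is shared in part with *Xpo7*, so its level is uncertain.

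Genes of the two-cell stage, when the embryonic genome is first activated in the mouse, ranged widely in level. Of 24 genes 11 were detected (45.8%, against 48.3% of all protein-coding genes), with a median of 1.77 TPM against 1.23 TPM, and 9 were below 1 TPM in every pool, including *Duxf3* (0.107, 0.491 and 0.0745 TPM), which encodes the activator DUX, and the 6 listed *Zscan4* genes. The highest were of the *Tdpoz* family, with *Tdpoz2* at 150.0, 85.01 and 153 TPM and *Tdpoz4* at 154, 50.7 and 46.2 TPM, followed by *Sp110*, a nuclear body gene, at 59.99, 62.3 and 69.8 TPM. Of the 11 detected genes none was highest in pool 2, against 29.5% of detected protein-coding genes, and 7 were lowest there. *Zfp352*, a retrogene of this stage, was at 8.66, 1.11 and 7.54 TPM. Members of these families are near-identical copies, and read pairs that map to several places were not counted, so their levels are uncertain.

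The machinery of compaction and polarity was fully expressed. All 29 genes were detected and 27 had a mean of 10 TPM or more, with a median of 54.0 TPM. *Cdh1*, E-cadherin, on which compaction depends, was at 210.3, 141 and 244 TPM, with its cytoplasmic partners *Ctnna1* at 189, 222 and 208 TPM and *Ctnnb1* at 145, 134 and 121 TPM. The apical polarity genes *Pard6b* (84.7, 109 and 103 TPM), *Prkci* (41.2, 44.6 and 41.3 TPM), *Prkcz* (17.5, 21.4 and 19.03 TPM) and *Pard3* (15.4, 16.2 and 16.9 TPM) were lower, in this order in every pool. *Ezr*, which encodes the apical protein ezrin, was at 30.5, 53.7 and 71.98 TPM, lowest in pool 1 and highest in pool 3. The related *Msn*, moesin, was the lowest of the list at 4.82, 2.97 and 3.47 TPM.

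Tight junction and actomyosin genes were of similar order. *Tjp1*, which encodes ZO-1, was at 128, 122 and 120.5 TPM, *Ocln* at 61.4, 41.2 and 58.2 TPM and *Cldn7* at 140.1, 120.4 and 161 TPM. The non-muscle myosin heavy chains *Myh9* and *Myh10* were at 102, 106 and 108 TPM and 100.5, 112 and 117 TPM. *Cdh1* and *Ocln*, which encode membrane proteins, had their lowest value in pool 2, whereas *Ctnna1* had its highest there. Of the 29 genes of the list 13 were highest in pool 2, against 29.5% of all detected protein-coding genes. Only 7 were lowest there, against 37.2%, and 18 were lowest in pool 1, against 31.6%.

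All 17 genes of the Hippo pathway were detected, with a median of 23.4 TPM. The co-activators *Yap1* (52.3, 51.04 and 45.3 TPM) and *Wwtr1*, which encodes TAZ (61.8, 57.8 and 56.1 TPM), were close in level, with *Wwtr1* above *Yap1* in each pool. Of their DNA-binding partners, *Tead4* was far above *Tead1* (25.9, 27.9 and 28.2 TPM), *Tead2* (10.9, 10.9 and 11.6 TPM) and *Tead3* (2.14, 1.39 and 1.45 TPM). The kinase genes *Lats1* and *Lats2* were at 14.1, 17.5 and 14.9 TPM and 20.5, 25.5 and 24.2 TPM, with *Lats2* above *Lats1* in every pool. *Amot*, the angiomotin that holds YAP in the cytoplasm of inner cells, was at 66.6, 70.8 and 80.6 TPM, and *Nf2*, which encodes merlin, at 72.3, 69.7 and 67.98 TPM.

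Genes for the blastocoel, the cavity that fills after the morula stage, were few but some were high. Of 15 genes 6 were detected. The water and glycerol channel *Aqp3* was at 414, 312 and 506 TPM and *Aqp9* at 41.5, 35.9 and 49.1 TPM, while *Aqp8* and *Aqp1* were at 0. The β subunits of the sodium pump *Atp1b3* and *Atp1b1* were at 65.8, 55.8 and 70.7 TPM and 19.6, 16.1 and 26.4 TPM. Of the 6 detected genes 5 were highest in pool 3, against 36% of detected protein-coding genes, and 5 were lowest in pool 2, against 37.2%.

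In glucose metabolism, transporters and enzymes with several isoforms differed in how far the isoforms lay apart. Of 21 genes 17 were detected, with a median of 12.1 TPM over all 21. *Slc2a3*, the high-affinity transporter GLUT3, was at 114, 77.7 and 177 TPM, and *Slc2a1*, GLUT1, at 12.3, 13.7 and 21.6 TPM. *Hk1* (63.7, 69.6 and 65.1 TPM) was above *Hk2* (35.5, 39.8 and 35.3 TPM) in every pool, and *Aldoa* (190.2, 204 and 187 TPM) was far above *Aldoc* (0.237, 0.119 and 0.329 TPM). *Ldhb* (13.2, 12.2 and 10.97 TPM) was above *Ldha* (5.37, 8.92 and 4.05 TPM) in every pool. *Gapdh* was listed at only 6.61, 6.68 and 7.26 TPM, a value that is uncertain because read pairs shared with its many processed pseudogenes were not counted. Such pairs were left out for every gene, so the order of *Ldhb* and *Ldha* may also depend on how uniquely their pairs map, which was not tested.

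All 12 genes of DNA methylation and its removal were detected, with a median of 39.0 TPM. The maintenance methyltransferase *Dnmt1* was at 35.1, 33.98 and 30.5 TPM and its cofactor *Uhrf1* at 39.8, 44.3 and 52.6 TPM, and the de novo enzymes were at 52.8, 74.3 and 66.1 TPM for *Dnmt3b* and 23.1, 24.6 and 28.1 TPM for *Dnmt3a*. Among the dioxygenases that oxidize 5-methylcytosine, *Tet2* (113, 104 and 143 TPM) was above *Tet1* (51.95, 58.3 and 54.2 TPM), and *Tet3*, known as the enzyme of the zygote, was low at 6.76, 6.497 and 5.55 TPM. *Trim28*, the co-repressor recruited by KRAB zinc finger proteins such as ZFP57 at imprinted loci, was at 464, 476 and 448 TPM, and *Zfp57* itself at 13.8, 9.52 and 13.1 TPM.

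Of 26 imprinted genes 13 were detected and the median was 1.52 TPM, so this list, at 50%, was close to the 48.3% of all protein-coding genes. *Igf2r*, the maternally expressed receptor that clears IGF2, was at 259, 162 and 312 TPM, and *Snrpn*, a paternally expressed splicing protein gene, at 161, 149 and 154 TPM. *Igf2* was at 1.11, 1.11 and 1.01 TPM and *H19* at 0.118, 0.256 and 0.0545 TPM. *Sfmbt2* was at 7.83, 8.79 and 16.4 TPM and *Peg3* at 9.24, 7.25 and 7.51 TPM. The allele of origin cannot be read from these values.

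Transcripts of X inactivation and of the Y chromosome were both present in each pool. *Xist*, the RNA that coats the inactive X chromosome, was at 49.7, 28.2 and 84.2 TPM, a ratio of 2.98 between the highest and the lowest pool. *Ddx3y*, an RNA helicase gene of the Y chromosome, was at 18.1, 30.5 and 17.8 TPM, highest in the pool where *Xist* was lowest. *Eif2s3y*, also Y-linked, was at 7.48, 7.77 and 4.09 TPM, and *Sry* was at 0. The X-linked relatives were much higher, with *Ddx3x* at 1054, 935 and 905 TPM and *Eif2s3x* at 221, 210.3 and 239.9 TPM. The median level of detected protein-coding genes of the X chromosome was 0.735, 0.667 and 0.744 times that of autosomal ones. The number of female and male embryos in each pool is not given in the sources used here, so its part in the differences between pools was not tested.

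Among gene families, those of basic cell function were nearly complete. Of 87 cytosolic ribosomal protein genes 86 were detected, with a median of 528 TPM over all 87. Together the list held 7.13%, 7.08% and 6.75% of the TPM. Read pairs that map to several places were not counted, and how far this lowers the levels of the list was not tested. The respiratory chain and ATP synthase list was detected in full, 77 of 77, with a median of 57.2 TPM. Of 49 proteasome genes 44 were detected, with a median of 111 TPM over all 49. The highest of these were *Atp5mpl* (529, 498 and 512 TPM), a small ATP synthase subunit, and *Psmd4* (556, 500.4 and 535 TPM), a ubiquitin receptor of the proteasome. All 16 listed *Snhg* genes, hosts of small nucleolar RNAs, were detected. Exonic sequence is shared with another annotated gene by 14 of them, against 6532 of the 21884 protein-coding genes. Their detection, and the counts by pool given for them below, are uncertain to that extent. The *Platr* transcripts, long non-coding RNAs associated with pluripotency, were less complete, with 11 of 28 detected (39.3%), against 5.93% of long intergenic non-coding RNAs. They were led by *Platr31* at 68.1, 63.9 and 58.5 TPM.

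Families of specialized cells were nearly absent. None of 39 Hox genes was detected, with *Hoxb9* the highest at 2.102, 2.37 and 0.703 TPM. Of 1102 olfactory receptor genes 3 were detected, and 843 were at 0 in every pool, and none of 349 vomeronasal receptor genes was detected. Of 365 genes named Zfp, which encode zinc finger proteins, 253 (69.3%) were detected, above the share of all protein-coding genes but mostly at low levels. Their median was 4.72 TPM over all 365 and 9.21 TPM over the detected ones.

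The spread between the pools was small for abundant genes and exceeded what counting alone gives. For protein-coding genes of 200 nt or longer, the median coefficient of variation (CV, the SD over the 3 pools divided by their mean) was 20.8% at 1 to 10 TPM, 9.14% at 10 to 100 TPM, 6.48% at 100 to 1000 TPM and 5.64% at 1000 TPM or more. The CV that Poisson counting of the recovered read pairs gives was 10.2%, 3.45%, 1.49% and 0.687% at the median of the same classes. Both values leave out genes whose pairs could not be recovered and genes at 0 TPM in any pool. These counting values cover sampling of pairs only, since pairs in these libraries carry no molecular identifiers.

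**Figure D3:**
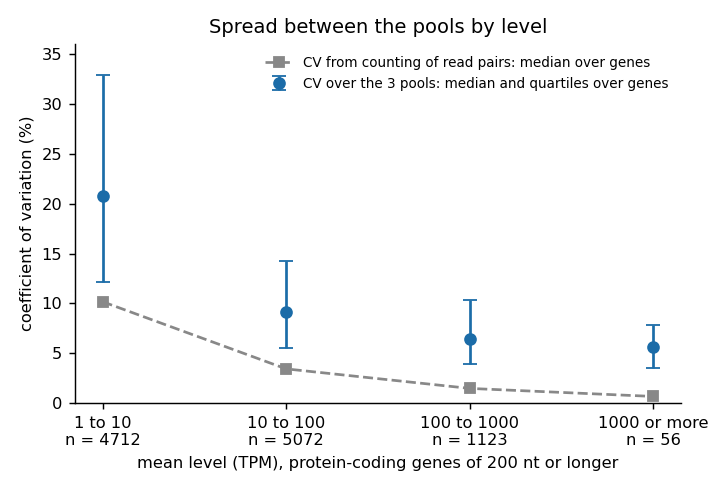
Coefficient of variation over the 3 control pools (blue, median and quartiles over genes) and the value that counting of read pairs gives (grey, median over genes), by class of mean TPM, for protein-coding genes of 200 nt or longer. The observed median is above the counting value in every class, 9.14% against 3.45% at 10 to 100 TPM. Genes without recovered pairs or at 0 TPM in any pool are left out.

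A ratio of 2 or more between the highest and the lowest pool was reached by 425 of the 8200 genes with a mean of 10 TPM or more (5.18%), and by 94 of the 6447 protein-coding ones (1.46%). Genes under 200 nt made up 216 of the 425, but their share of the 8200 is not given here. Of the 94 protein-coding genes 34 were highest in pool 1, 13 in pool 2 and 47 in pool 3, and 54 were lowest in pool 2. Among all detected protein-coding genes 34.5%, 29.5% and 36% were highest in pools 1, 2 and 3, and 37.2% were lowest in pool 2. The labels name no batch, date or litter that would set the pools apart.

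The named genes with the largest ratios were of different kinds. *Ifitm2*, an interferon-induced membrane protein gene, had a ratio of 6.91 with values of 11.7, 16.3 and 2.35 TPM, which rest on 39.8, 110 and 11.5 read pairs. *Zfp970*, a zinc finger gene, was at 37.8, 9.48 and 7.99 TPM, high in pool 1 alone. *Pmaip1*, which encodes the pro-apoptotic protein NOXA, was at 73.5, 18.7 and 38.8 TPM, also highest in pool 1. Both *Gstp1* (50.5, 27.4 and 16.3 TPM) and its neighbour *Gstp2* (30.4, 15.4 and 10.5 TPM), glutathione transferases, were highest in pool 1 and lowest in pool 3, as was the kinase gene *Plk2* (30.97, 18.3 and 10.6 TPM). The long non-coding RNA *Lncenc1*, known from naive embryonic stem cells, was at 18.8, 5.399 and 10.1 TPM. *Mgarp*, a mitochondrial protein gene, was highest in pool 3, at 9.44, 5.201 and 16.5 TPM. *Lrp2*, *Tdpoz4* and *Xist*, given above, were also among the 15.

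At the other end, some genes were nearly identical across pools. *Ppp1r26* was at 16.4, 16.4 and 16.4 TPM and *Gpalpp1* at 17.7, 17.7 and 17.7 TPM, closer together than counting of their 478 to 983 pairs gives at the median of their class. Genes of this group were picked for their small ratios among many, so such closeness follows from the choice and is no trait of the genes. The more abundant genes of this group rest on more pairs. *Hdac1*, a histone deacetylase, was at 455, 459 and 454 TPM, *Eef1g*, a subunit of the elongation factor complex, at 710.4, 712 and 715 TPM, and *Mdh2*, mitochondrial malate dehydrogenase, at 224, 226 and 225 TPM. The splicing factor gene *Sf3b3* was at 62.8, 62.3 and 62.3 TPM and the chromatin protein gene *Nucks1* at 161, 161 and 160.5 TPM.

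Some groups of genes shared an order of the pools. The groups in this paragraph and the next, and the histone genes after them, were chosen after their values were seen, so their counts describe these pools and support nothing further. Of 26 chaperones and folding enzymes of the endoplasmic reticulum (ER) 21 were highest in pool 3 and 24 were lowest in pool 2, where 36% and 37.2% of detected protein-coding genes were. The median log2 ratio of pool 3 to pool 2 was 0.75, against 0.02 for all detected protein-coding genes. *Hspa5*, which encodes the ER chaperone BiP, was at 131, 105 and 287 TPM, *Calr*, calreticulin, at 347, 267 and 632 TPM, and *Hsp90b1*, the HSP90 of the ER, at 105, 96.97 and 233 TPM. *Pdia4*, a disulphide isomerase gene, was at 141, 106 and 240.1 TPM. The cytosolic chaperones did not have this order: their median log2 ratio of pool 3 to pool 2 was 0.00.

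Other genes of the secretory route and the cell surface were also often lowest in pool 2, to different degrees. Of 21 lysosomal genes 15 were highest in pool 3 and 20 lowest in pool 2, with *Psap*, prosaposin, at 980.4, 687 and 1256 TPM. Of 115 detected solute carriers outside the Slc25 family 59 were highest in pool 3, 52 in pool 1 and 4 in pool 2, and 82 (71.3%) were lowest in pool 2, against 37.2% of all detected protein-coding genes. The median log2 ratio of pool 3 to pool 1 of these carriers was 0.03. Their Slc25 relatives, which lie in the inner mitochondrial membrane, had 12 of 34 highest in pool 2 and 8 lowest there. Of 20 detected laminins, collagens and integrins 18 were lowest in pool 2, and *Itgb1*, the β1 integrin chain, was at 83.3, 53.4 and 108 TPM. Of 23 genes of ER translocation and glycosylation 16 were highest in pool 3 and 18 lowest in pool 2, and of 127 detected *Tmem* genes, named for predicted transmembrane proteins, 66 were highest in pool 3 (52.0%, against 36% of all) and 60 lowest in pool 2 (47.2%, against 37.2%). The 78 mitochondrial ribosomal protein genes, made in the cytosol and imported, were most often highest in pool 2 (38 genes) and had a median log2 ratio of pool 3 to pool 2 of -0.04. Low values in pool 2 were not confined to the secretory route and cell surface. Lowest there were also 11 of 16 *Snhg* genes (68.8%), 9 of 13 detected imprinted genes (69.2%) and 6 of 11 detected *Platr* transcripts (54.5%).

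Replication-dependent histone genes were mostly highest in pool 2. Of 61 detected genes 55 were highest in pool 2, against 29.5% of all detected protein-coding genes, and 50 were lowest in pool 3, against 31.3%. *H4c4* was at 618, 873 and 493 TPM, *H2bc18* at 1168, 1494 and 1126 TPM and *H1f1*, a linker histone gene, at 1056, 1172 and 1041 TPM. Their transcripts end in a stem-loop in place of a poly(A) tail, and many are near-identical copies whose levels are uncertain. The histones summed to 1.67%, 2.04% and 1.54% of the TPM. Pool 2 was also the deepest library, and the part of depth or of the stage of the embryos in these differences was not tested.

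Cytosolic ribosomal protein genes had a small shift, with 57 of 86 lowest in pool 3 and a median log2 value in pool 3 of -0.06 relative to the mean of the pools. Only 12 of them were lowest in pool 1, against 31.6% of all detected protein-coding genes. The proteasome list and the respiratory chain list had medians between -0.02 and 0.01 (log2) relative to the mean in each pool.

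**Figure D4:**
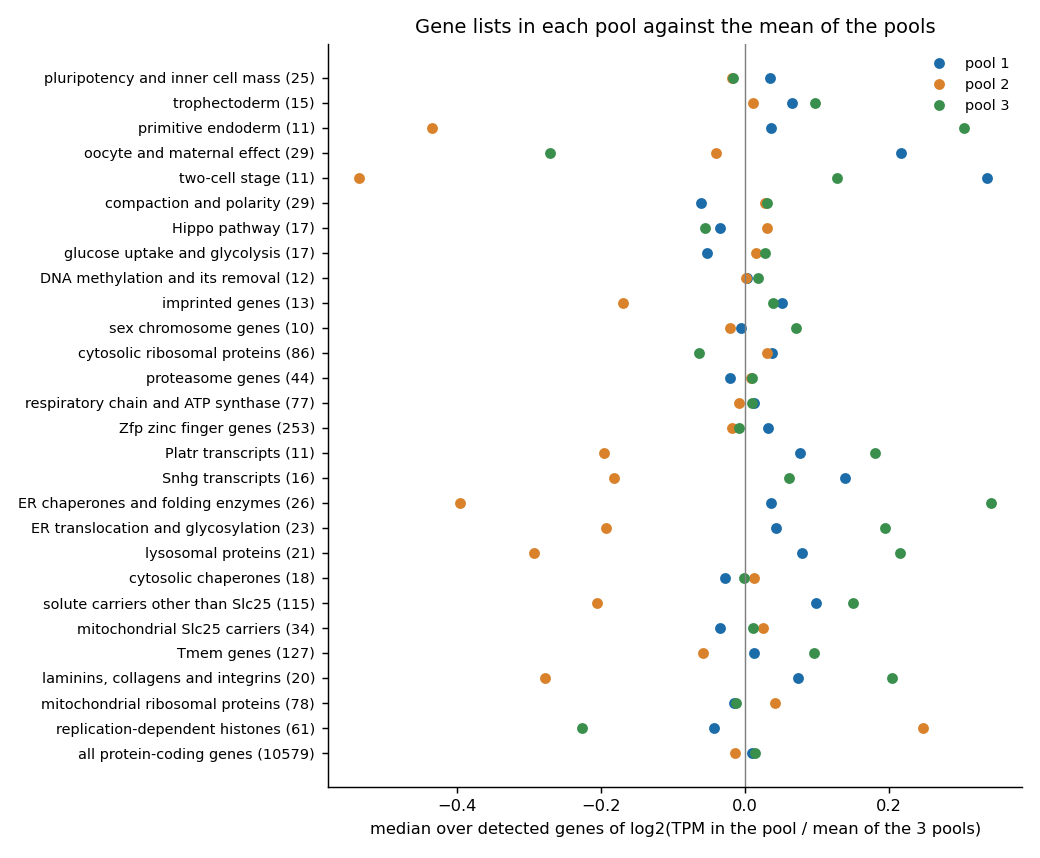
Median over the detected genes of each list of the log2 ratio of the TPM in a pool to the mean of the 3 pools (number of detected genes in brackets; blue, orange and green for pools 1, 2 and 3). Lists of the ER, lysosome and cell surface lie lowest in pool 2 and highest in pool 3. Some other lists also lie lowest in pool 2, among them the two-cell list (-0.54), *Snhg* genes (-0.18) and imprinted genes (-0.17). Histones lie highest in pool 2, and all protein-coding genes together lie at 0.01, -0.01 and 0.01.

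Promoter sequence differed with the level of a gene. RefSeq promoters (GRCm38.p6, 250 bases before to 50 bases after the start) were matched by symbol for 16785 of 21862 protein-coding symbols, and the 14077 with a single listed start were used. Promoters of the mouse fall into those rich in the dinucleotide CG, where housekeeping and many developmental genes start, and those poor in it, often of tissue-specific genes. The promoters of 3 genes are shown with each CG in capitals, as examples of an abundant gene with many CG, an abundant gene with few and a gene near 0 TPM: *Ptma* (mean 5821 TPM, chr1:86526307-86526606, plus strand), *Sfn*, chosen after its values were seen as an abundant gene with a CG-poor promoter (mean 1691 TPM, chr4:133602119-133602418, minus strand), and *Alb* (mean 0.0138 TPM, chr5:90460620-90460919, plus strand).

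Ptma: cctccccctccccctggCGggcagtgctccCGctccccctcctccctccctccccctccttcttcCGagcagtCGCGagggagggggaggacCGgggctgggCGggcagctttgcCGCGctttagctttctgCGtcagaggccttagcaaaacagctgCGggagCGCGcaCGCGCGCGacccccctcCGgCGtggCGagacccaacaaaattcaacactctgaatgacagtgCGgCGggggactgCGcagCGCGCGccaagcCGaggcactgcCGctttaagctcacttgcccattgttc

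Sfn: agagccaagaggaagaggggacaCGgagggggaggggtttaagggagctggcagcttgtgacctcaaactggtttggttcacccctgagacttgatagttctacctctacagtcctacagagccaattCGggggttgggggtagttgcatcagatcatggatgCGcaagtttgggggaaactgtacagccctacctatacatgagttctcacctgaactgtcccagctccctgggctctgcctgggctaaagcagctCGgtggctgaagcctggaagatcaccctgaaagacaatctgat

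Alb: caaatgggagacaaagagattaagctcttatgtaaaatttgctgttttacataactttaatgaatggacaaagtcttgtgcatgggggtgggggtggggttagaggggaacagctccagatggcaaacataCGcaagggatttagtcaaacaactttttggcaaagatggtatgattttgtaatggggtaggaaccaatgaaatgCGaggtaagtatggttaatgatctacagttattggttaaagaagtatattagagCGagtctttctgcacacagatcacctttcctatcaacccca

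The *Ptma* window holds 28 CG dinucleotides, that of *Sfn*, which encodes 14-3-3σ, holds 4 and that of *Alb* holds 3. Over all promoters the median count was 13. It was 2 for genes at 0 TPM, 7 for genes above 0 and under 1 TPM, 19 at 1 to 10 TPM, 23 at 10 to 100 TPM and 23 at 100 TPM or more. The steps lay below 10 TPM, and the median was the same in both classes above it. Promoters with 10 or more CG made up 11.4% of the first class and 91.8% of the last. The GC box, GGGCGG on either strand, followed the same course, in 11.7% of promoters at 0 TPM, 69.7% at 10 to 100 TPM, 67.4% at 100 TPM or more and 46.9% of all promoters. It contains a CG itself. Olfactory receptor genes, many of them at 0 TPM, had a median of 1 CG over 932 promoters, and vomeronasal receptor genes a median of 1 over 319.

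TATAAA, searched on the strand of the gene only, had its lowest share in the middle. It was found in 21.0% of promoters at 0 TPM, 10.1% above 0 and under 1 TPM, 4.61% at 1 to 10 TPM, 3.64% at 10 to 100 TPM and 8.25% at 100 TPM or more, against 9.60% of all promoters. Olfactory and vomeronasal receptor promoters, most of them of genes at 0 TPM, held it in 23.4% and 26.0%. Of the 66 promoters with TATAAA in the highest class, 19 (28.8%) belong to replication-dependent histone genes, and 26 of the 49 histone promoters used hold it. The linker histone gene *H1f1* is shown as an example, chosen after its values were seen (mean 1090 TPM, chr13:23763418-23763717, plus strand), with TATAAA in capitals, starting 33 bases before the listed start.

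H1f1: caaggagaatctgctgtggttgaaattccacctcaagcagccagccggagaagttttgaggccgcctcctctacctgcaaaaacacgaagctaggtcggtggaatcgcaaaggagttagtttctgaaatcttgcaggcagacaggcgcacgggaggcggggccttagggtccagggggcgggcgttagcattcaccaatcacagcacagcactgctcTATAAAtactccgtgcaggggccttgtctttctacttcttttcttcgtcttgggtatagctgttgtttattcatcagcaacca

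CCAAT, or ATTGG on the other strand, was found in 37.5% to 42.1% of promoters of each class and 39.6% of all, with no course along the level. GCCATNTT on either strand, the core of the sequence that YY1 binds, was found in 3.22% of promoters at 0 TPM, 3.72% above 0 and under 1 TPM, 7.27% at 1 to 10 TPM, 13.1% at 10 to 100 TPM and 10.9% at 100 TPM or more, against 7.03% of all. A match of this kind is a description of letters in the window.

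The gene lists differed in their promoters in the same terms. The two-cell list had a median of 2 CG over 13 promoters, of which 6 held TATAAA, and the maternal list a median of 4.5 over 24. Trophectoderm genes had a median of 17 over 13 promoters, pluripotency genes 14 over 13, and compaction genes 22 over 14. The YY1 core was held by 21 of 66 promoters of mitochondrial ribosomal proteins (31.8%), 15 of 59 of the respiratory chain list (25.4%) and 9 of 56 of cytosolic ribosomal proteins (16.1%), against 7.03% of all promoters, 13.1% at 10 to 100 TPM and 10.9% at 100 TPM or more. It was also held by 4 of 11 promoters of sex chromosome genes (36.4%) and 4 of 17 of ER translocation and glycosylation (23.5%). It was held by 5 of 174 of the solute carriers outside the Slc25 family (2.87%) and 0 of 54 of the laminins, collagens and integrins. Trophectoderm (0 of 13) and compaction (0 of 14) promoters were too few for 0 to be told apart from the 7.03% of all.

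**Figure D5:**
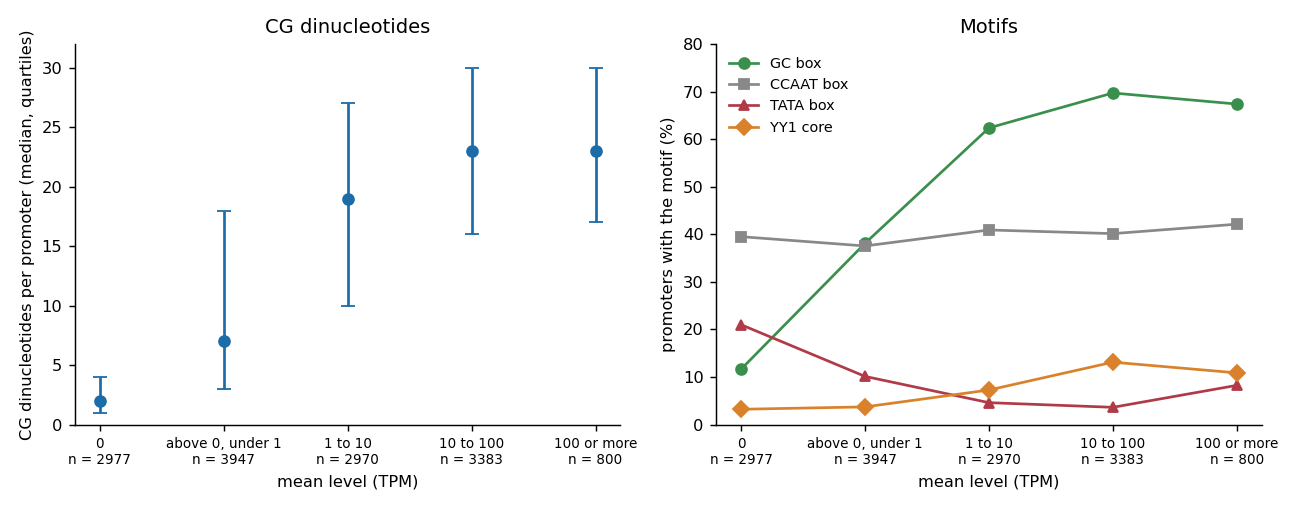
Promoter windows of protein-coding genes by class of mean TPM. Left, CG dinucleotides per window (median and quartiles); right, share of windows with the GC box, CCAAT box, TATA box and YY1 core, whose letters are in the text. CG counts go from a median of 2 at 0 TPM to 23 at 100 TPM or more, and the share with a TATA box is lowest, at 3.64%, at 10 to 100 TPM.

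*Yy1* (ENSMUSG00000021264.12; chromosome 12 from 108792973 to 108820148, GRCm38, plus strand) was at 96.03, 100.2 and 89.8 TPM in the control pools, 95.3 ± 5.26 TPM (SD, n = 3), rank 1280 of the protein-coding genes. In the libraries labelled *Yy1* KD it was at 8.73, 8.90 and 8.32 TPM, below every control pool, so the level of the target goes with the labels of the groups. Its retroposed relative *Yy2*, on the X chromosome, was at 7.11, 6.86 and 7.53 TPM in the control pools.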

How the data were processed

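Total RNA of 3 pools of control KD morulae was read with the SMART-Seq Stranded kit and paired-end sequencing. The authors trimmed the adaptor bases (Trim Galore 0.6.7), aligned to mm10 (HISAT2 2.2.1), removed reads on ribosomal RNA (bedtools), assigned pairs to GENCODE vM25 genes with featureCounts 2.0.1, dividing pairs on several genes, ignoring strand and leaving out pairs that map to several places, and deposited TPM, in a table of 55364 genes. No value column of a sample was left unused (0 columns).

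Genes were matched by identifier to GENCODE vM21 (GRCm38, the assembly of mm10; 55104 of 55364, 99.5%) for types, coordinates and exon lengths, and read pairs were recovered as TPM times length in units of the commonest value. Of values worth up to 20 pairs, 80.8%, 81.4% and 81.4% came out whole within 0.05 in pools 1, 2 and 3. Pairs were recovered only for the 54312 genes whose identifier version was also the same. The depth of 12519597 to 24417789 pairs is the sum over these genes.

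No test was made, since 1 group is described. Whether the pools were separate collections is not given in the sources used here, and the spread between them may be technical. The control and list genes, and the rules for naming genes, were chosen with earlier results of these data known. Named genes are list members, the 20 highest genes and protein-coding genes, the 10 highest non-coding genes of at least 200 nt, the 15 most and 15 least varying named genes with a mean of at least 10 TPM, and *Yy1* with *Yy2*. The lists of the ER, lysosome, carriers, Tmem genes, cytosolic chaperones, basement membrane, mitochondrial ribosome and histones were added after values were seen. Python 3.11.15, pandas 2.3.3, numpy 2.4.6 and matplotlib 3.10.9 were used, and the spread calculation was tested on simulated data.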

Additional observations from a re-analysis of the deposited data

How the results depend on the processing

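Of 79 values recomputed under alternatives, 56 stayed within 1.5 times (counts) or 1 SD over the pools (other values) of the value given, and 23 moved. With only genes without exonic overlap, 8806 genes were detected, 6447 of them protein-coding, and 275 genes varied 2-fold. The 10 highest of these genes held 19.3% of the TPM of genes without overlap, not of the whole library. In the same setting the median percentile among protein-coding genes went from 75.1 to 80.02 for the trophectoderm list, from 58.4 to 51.8 for primitive endoderm, from 62.4 to 66.1 for maternal genes, from 53.1 to 57.9 for the two-cell list and from 89.7 to 91.1 for compaction. A minimum of 5 TPM left 9710 detected genes. The share of the 10 highest, 17.7%, was 16.8% without genes under 200 nt and 9.48% among protein-coding genes. The count of 425 varying genes depended most on the settings: it was 265 without genes under 200 nt, 160 for protein-coding genes rescaled to themselves, 17475 with no minimum on the mean, 70 at a mean of at least 50 TPM, 1366 at a fold of 1.5 and, in an alternative added after seeing the data, 101 with at least 100 read pairs in each library. Leaving out a pool, which leaves 2 values a gene, gave 210 (without pool 3) to 241 (without pool 2) varying genes, 230 without pool 1, and a compaction percentile from 89.7 to 90.4. Median-ratio scaling of the pools moved none of these values by more than these limits. In an alternative added after seeing the data, the same scaling gave medians (log2, relative to the mean of the pools) of -0.36 in pool 2 and 0.32 in pool 3 for ER chaperones and of 0.28 and -0.24 for histones, in place of -0.40, 0.34, 0.25 and -0.23. No paired analysis was possible because only 1 group is described and no result comes from a test. Depth limits the low classes most: at 1 to 10 TPM the shallowest value of a gene rested on 70 pairs at the median.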
